A study of Gallus gallus with 6 samples.

Results

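A set of 9 genes of interferon induction, STAT signalling and its feedback control was followed in the chicken B cell line DT40, by matching the gene symbols of the deposited tables to IRF7, IRF1, IRF8, STAT3, SOCS1, XAF1, ADAR, TLR7 and IFIH1. Each of the 9 symbols matched 1 of the 17108 genes in the tables. IRF7, IRF1, IRF8, STAT3, SOCS1, XAF1, ADAR and TLR7 had counts, and these 8 passed the filter on low counts. IFIH1 had no count in any library. RNA had been sequenced in 6 libraries, 3 of wild type DT40 cells named Clone 18 and 3 of Bach2 knockout cells (genotype Bach2-/-), each from its own culture. DT40 keeps altering its immunoglobulin genes as it grows, and the series addresses the role in this of Bach2, which represses transcription in B cells. Both genotypes were grown in the same serum-supplemented medium, and the labels name no interferon or other stimulus. They do not say how many knockout clones were used, although the knockout columns all carry the name Bach2ko1, and p-values here reflect only how much cultures vary. If it was 1 clone, an effect of the knockout and a property of that clone cannot be told apart.

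Interferons are secreted when a cell senses foreign nucleic acid. TLR7 reads single-stranded RNA inside endosomes and IFIH1, also called MDA5, reads double-stranded RNA in the cytosol, a task it carries in chickens without RIG-I, which they lack. Both lead to interferon regulatory factors such as IRF7, and interferon or cytokine receptors then signal through JAK kinases to STAT factors. STATs and IRFs switch on effector genes such as ADAR and XAF1 and also SOCS1, which closes the loop by inhibiting JAK kinases. IRF8 also has a role in B cells and myeloid cells as a lineage factor.

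The libraries summed to between 8999010 and 20647281 counts. BACH2 itself was at 2.56 ± 0.114 RPKM (reads scaled by gene length and by a factor for each library, close to its total; SD, n = 3) in wild type. In the knockout it was at 1.17 ± 0.186 RPKM, so its reads were reduced and not lost. All 10 B cell markers in the table were detected, with a sum of 2909 to 3159 CPM (counts scaled to a common library total) in wild type libraries. In knockout libraries the sum was 2342 to 2424 CPM, and 7 of the 10 were called lower and 1 higher. Over all tested genes, 18.0% were called lower and 12.7% higher. Of the macrophage and granulocyte list, MARCO was at 0 and wild type libraries summed to 40.1 to 50.1 CPM against 17.6 to 23.9 CPM for knockout libraries, nearly all of it MPEG1. The T cell list, mostly CD3D, gave 140 to 177 CPM in wild type libraries and 85.4 to 108 CPM in knockout libraries, with TCF7, CD28 and CD4 at 0. All 3 tested genes of the T cell list were called lower. The mean of CD3E fell from 17.3 to 0.820 CPM and that of a CD8A entry from 5.06 to 0.245 CPM. The lists of thrombocyte and erythroid cells and of fibroblasts stayed at or below 4.28 CPM in every library. The part of these marker shifts in the results below was not tested. In bulk RNA, fewer cells that express a gene and less RNA per cell cannot be told apart. Knockout replicate 1 stood apart from the other knockout libraries on the second principal component, which held 13.0% of the variance.

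The first question was how much of each gene DT40 cells contained. RPKM, which corrects for gene length, allows a comparison between genes. IRF8 was the most abundant member. In wild type it had 158, 152 and 156 RPKM in replicates 1, 2 and 3, above 93.7% of the tested genes. STAT3, a transcription factor downstream of interleukin receptors, followed with 35.1 ± 1.71 RPKM (SD, n = 3). SOCS1 had 22.4 ± 1.19 RPKM and ADAR, the enzyme that edits adenosine to inosine in double-stranded RNA, 18.5 ± 2.70 RPKM. The ranges of these 2 genes overlapped, although SOCS1 was above ADAR in each library (ratios 1.09, 1.35 and 1.23 in replicates 1, 2 and 3). IRF1, an early interferon-induced factor, with 9.08 ± 0.657 RPKM, and TLR7, with 8.96 ± 0.172 RPKM, could not be ordered, since their ranges overlapped. IRF7 (1.58 ± 0.300 RPKM) and XAF1 (1.39 ± 0.724 RPKM), an interferon-inducible partner of the apoptosis inhibitor XIAP, were at the low end and overlapped. IRF7 lay above 12.0% of the tested genes.

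IFIH1 was listed at 0 in all 6 libraries. A count of 0 allows up to 3 counts, or between 0.147 and 0.339 CPM depending on the library, for counting error only. The transcript was thus not detectable on this gene model, which does not show that it is absent. The same caution holds for several other pathway genes listed at 0, because B2M, which nearly all cells use, had only 20 counts in all and therefore also fell below the filter.

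In the knockout, the upper end of the order was the same, with IRF8 at 138 ± 8.48 RPKM (SD, n = 3) and STAT3 at 40.5 ± 4.42 RPKM. Further down, ADAR lay above SOCS1 in each knockout library, the reverse of the wild type libraries. ADAR had 12.4, 15.1 and 15.8 RPKM in knockout replicates 1, 2 and 3, and SOCS1 had 10.1, 10.8 and 11.8 RPKM. These ranges no longer overlapped. IRF7, at 3.36 ± 0.325 RPKM, then lay clear of XAF1, at 0.467 ± 0.0902 RPKM.

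**Figure D1:**
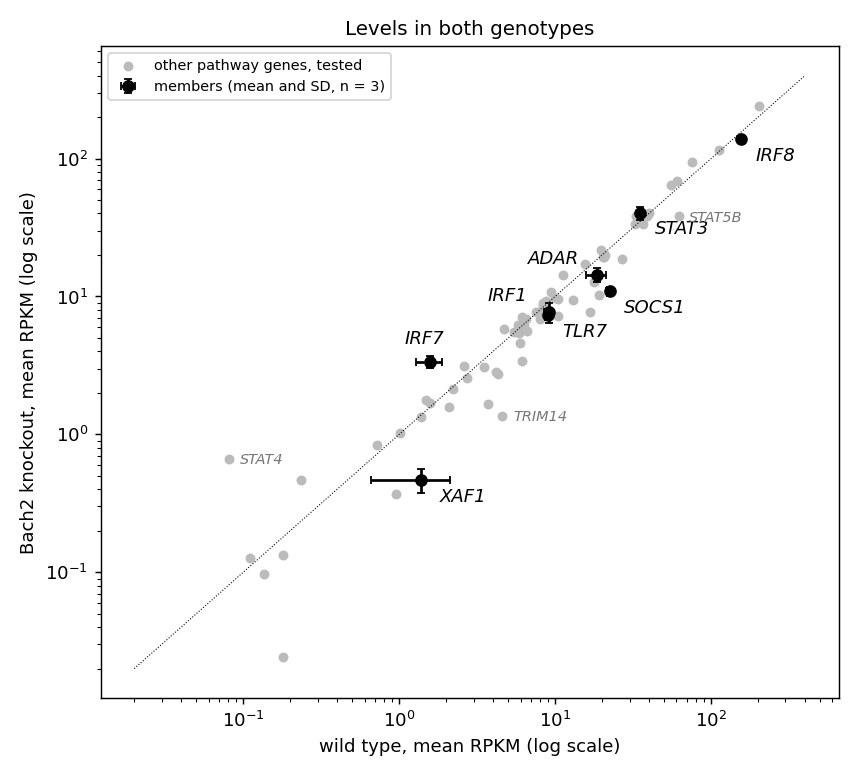
Mean RPKM in wild type (x axis) against the Bach2 knockout (y axis), both on log scales, for the 8 members with counts (black, with SD, n = 3 per genotype) and 64 other tested pathway genes (grey); the dotted line marks equal levels. IRF7 lies above the line at 1.58 and 3.36 RPKM, SOCS1 and XAF1 lie below it, and IRF8 and STAT3 lie close to it.

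The second question was which of these genes differed between the genotypes. Differences were tested with edgeR's quasi-likelihood test on the counts of all genes. A gene was called at a Benjamini-Hochberg adjusted p under 0.05 over 9159 tested genes. Positive log2 fold changes mean a higher level in the knockout, and each is given with its standard error (SE). IRF7 was called higher, while SOCS1, XAF1, ADAR, TLR7 and IRF8 were called lower; IRF1 and STAT3 were not called. That is 6 of the 8 tested members, where 30.7% of all tested genes were called, 12.7% higher and 18.0% lower. The same 6 members were those whose RPKM values did not overlap between the genotypes, against 47.5% of all tested genes. The median log2 fold change of the 8 was -0.30, and that of all tested genes was -0.0014. The members were chosen with earlier results of these data known, so these shares and medians are descriptions only. Of the 6 calls, those of IRF7 and SOCS1 held in all 15 alternative fits, and those of XAF1, ADAR, TLR7 and IRF8 were lost in some. The sizes differed: IRF7, SOCS1 and XAF1 differed at least 2-fold in mean RPKM, whereas ADAR, TLR7 and IRF8 differed by less than 1.5-fold.

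**Figure D2:**
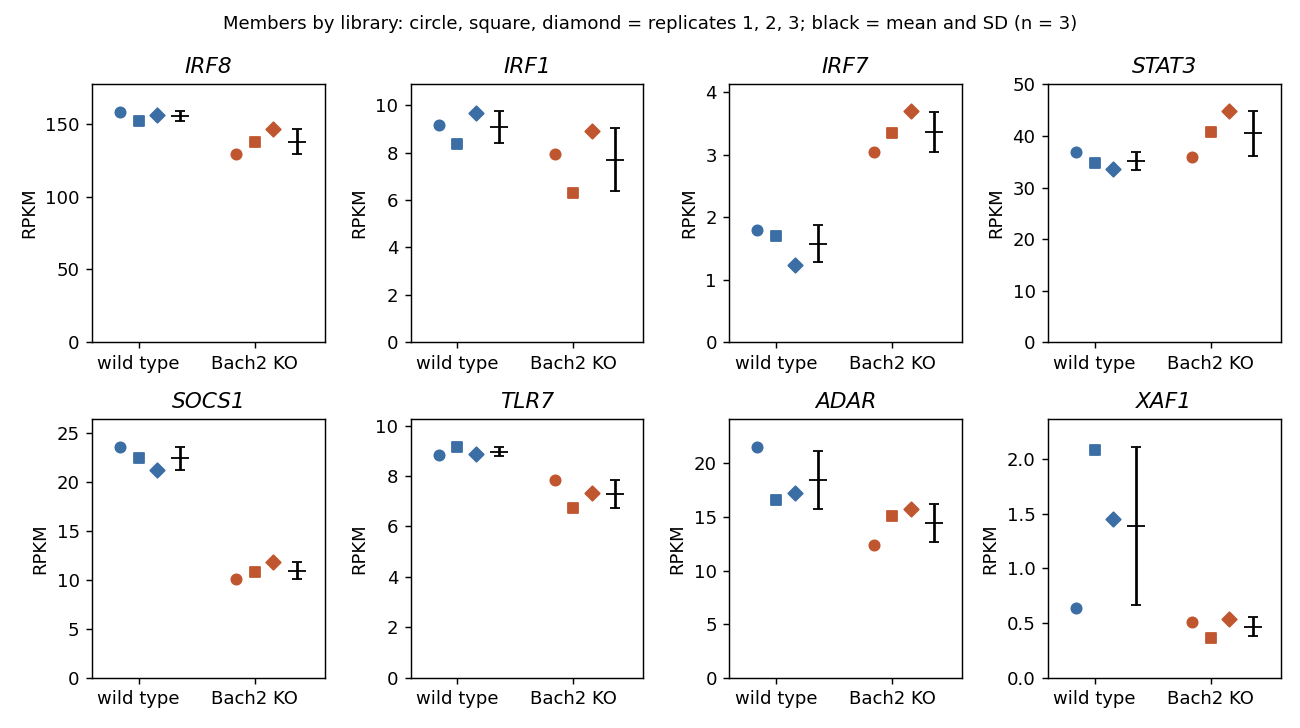
RPKM (y axis, from 0) of the 8 members with counts in each library, with wild type in blue, Bach2 knockout in orange, replicates 1, 2 and 3 as circle, square and diamond, and the mean with SD (n = 3) in black. The genotypes do not overlap for IRF7 and SOCS1, whose means are 1.58 against 3.36 and 22.4 against 10.9 RPKM, and they overlap for IRF1 and STAT3.

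Among the interferon regulatory factors, IRF7 rose. Its RPKM was 1.79, 1.71 and 1.23 in wild type replicates 1, 2 and 3 and 3.05, 3.35 and 3.70 in knockout replicates 1, 2 and 3. Every knockout library was above every wild type library, although the counts behind these levels were small (22 to 73 for wild type libraries, 78 to 141 for knockout libraries). The mean rose 2.13-fold (log2 fold change 1.03 ± 0.20, SE; edgeR adjusted p = 0.00297). By the size of the increase it ranked 118 among the tested genes. The call held without any single library and under all 15 alternatives, with adjusted p-values up to 0.0158.

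IRF8 moved little. It had 129, 138 and 146 RPKM in knockout replicates 1, 2 and 3, all below the lowest wild type library (152 RPKM). Its log2 fold change of -0.20 ± 0.069 (SE) had an edgeR adjusted p of 0.0439. This is the least secure call of the 6, lost in 11 of 15 alternatives. Its adjusted p rose to 0.119, 0.105 and 0.143 when wild type replicate 1, 2 or 3 was left out, to 0.122 when knockout replicate 2 was, and to 0.0817 when libraries were scaled by their totals. Across these settings it stayed between -0.23 and -0.16 throughout.

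IRF1 was not called. It had 9.18, 8.38 and 9.69 RPKM in wild type replicates 1, 2 and 3 and 7.95, 6.28 and 8.89 RPKM in knockout replicates 1, 2 and 3. Knockout replicate 3 lay within the wild type range. With a log2 fold change of -0.26 ± 0.17 (SE) and an edgeR adjusted p of 0.258, its 95% interval ran from -0.63 to 0.10. The interval includes both a decrease of that size and no change.

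Of STAT3 and SOCS1, a feedback inhibitor of JAK and STAT signalling, only SOCS1 was called. SOCS1 had 23.6, 22.4 and 21.2 RPKM in wild type replicates 1, 2 and 3 and 10.1, 10.8 and 11.8 RPKM in knockout replicates 1, 2 and 3. The gap between the genotypes was far wider than the spread within either. SOCS1 thus had a 2.05-fold lower mean and a log2 fold change of -1.07 ± 0.13 (SE; adjusted p = 0.00015 by edgeR). In the fits without 1 library the value stayed between -1.11 and -1.02 and the call was never lost. SOCS1 had the smallest adjusted p of the members, from 92 to 341 counts per library.

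STAT3 had 37.0, 34.8 and 33.6 RPKM in wild type replicates 1, 2 and 3 and 35.9, 40.8 and 44.8 RPKM in knockout replicates 1, 2 and 3. Knockout replicate 1 lay within the wild type range and the other 2 lay above it. Fitted over all 6 libraries, the log2 fold change of 0.17 ± 0.086 (SE; 95% interval -0.016 to 0.36) was not called, with an edgeR adjusted p of 0.151. Without knockout replicate 1 it was 0.25 and was called (adjusted p = 0.00511). The ratio of SOCS1 to STAT3 in RPKM, which does not depend on how libraries are scaled, was 0.638, 0.645 and 0.631 in wild type replicates 1, 2 and 3. It was 0.282, 0.265 and 0.264 in knockout replicates 1, 2 and 3. This ratio was chosen after the values of both genes were seen and is given as a description.

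**Figure D3:**
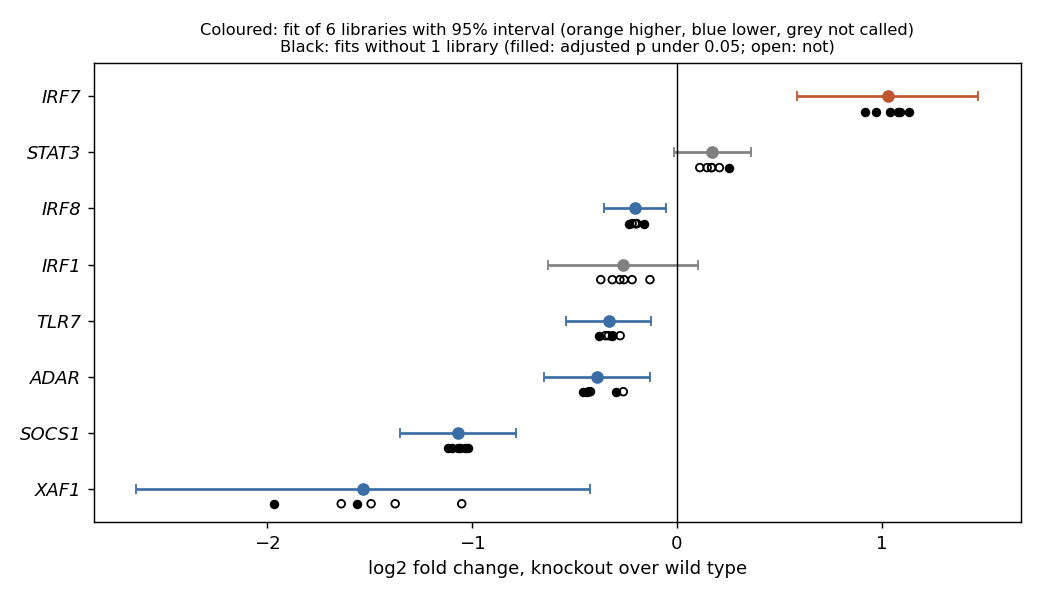
Log2 fold change of knockout over wild type (x axis) for the 8 tested members, as fitted with all 6 libraries with its 95% interval (orange higher, blue lower, grey not called) and in the 6 fits that each leave out 1 library (black, filled where called). IRF7 and SOCS1 keep filled symbols in all 6 fits, at 0.92 to 1.13 and -1.11 to -1.02, while IRF8, TLR7, ADAR and XAF1 show open symbols in some.

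The sensor TLR7 was lower. It had 8.84, 9.16 and 8.89 RPKM in wild type replicates 1, 2 and 3 and 7.83, 6.73 and 7.31 RPKM in knockout replicates 1, 2 and 3. The wild type values were close together, and all knockout values lay below them. TLR7 had a log2 fold change of -0.33 ± 0.094 (SE) and an edgeR adjusted p of 0.0213. Leaving out wild type replicate 1, 2 or 3 raised the adjusted p to 0.0541, 0.0888 and 0.0670, and leaving out knockout replicate 2 raised it to 0.0959.

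The effectors ADAR and XAF1 were lower as well. ADAR had 21.6, 16.6 and 17.2 RPKM in wild type replicates 1, 2 and 3, against 12.4 to 15.8 RPKM in the knockout. Wild type replicate 1 was the high one and knockout replicate 1, at 12.4 RPKM, the low one. Knockout replicates 2 and 3, at 15.1 and 15.8 RPKM, were close to wild type replicates 2 and 3. For ADAR the log2 fold change came to -0.39 ± 0.12 (SE) with an edgeR adjusted p of 0.0284. Without wild type replicate 1 it was -0.26 (adjusted p = 0.142). The call was also lost when wild type replicate 3 or knockout replicate 2 was left out (adjusted p = 0.05003 and 0.0563). The RefSeq genes of GRCg7b, an assembly other than the build named for the counts, place ADAR on chromosome 25. The 82 tested genes of that chromosome had a median log2 fold change of -0.20, so that ADAR stood at -0.19 relative to it.

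XAF1 was near the limit of detection. Its counts were 14, 31 and 14 in wild type replicates 1, 2 and 3 and 7, 7 and 11 in knockout replicates 1, 2 and 3. In RPKM this is 0.634, 2.08 and 1.45 against 0.505, 0.364 and 0.532. The genotypes did not overlap, but wild type replicate 1 lay close to the knockout libraries and wild type replicate 2 far above them. Its log2 fold change of -1.53 ± 0.50 (SE; edgeR adjusted p = 0.0398) was the largest decrease of the members and the least precise, with a 95% interval from -2.64 to -0.42. Without wild type replicate 2 it was -1.05 (adjusted p = 0.211). The call was also lost without wild type replicate 3 (0.102), knockout replicate 2 (0.120) or knockout replicate 3 (0.0530).

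The members were not neighbours. In the GRCg7b gene table, IRF7 is on chromosome 5, IRF1 on 13, IRF8 on 11, STAT3 on 27, SOCS1 on 14, XAF1 on 19, ADAR on 25, TLR7 on 1 and IFIH1 on 7. None is on chromosome 3, whose 688 tested genes were lower as a whole in the knockout (median -0.45). Apart from that of chromosome 25, the chromosome medians of the tested members lay between -0.060 and 0.083. Knockout replicate 1 had the lowest RPKM of the 3 knockout libraries for 5 of the 8 members, namely IRF7, IRF8, STAT3, SOCS1 and ADAR. For SOCS1, IRF8 and ADAR that made its distance from wild type the widest of the 3, and for IRF7 the narrowest.

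Genes with the most similar profile were found by the root mean square distance of log2 CPM, centred on the mean of the 6 libraries. SOCS1 was closest to PACS1 (0.018 on the log2 scale) and CAMKK2 (0.019). IRF7 was closest to ELOVL2 (0.115) and LMO2 (0.116), and TLR7 to AFTPH (0.025) and ODC1 (0.035). IRF8 was closest to ZC3H6 and MAP2K2 (both 0.021) and ADAR to CDON (0.045) and RNF166 (0.057). XAF1 had no near match, since PRSS12 (0.229) and RHOB (0.278) were its closest. These distances are descriptions over 6 libraries that share the genotype difference. PACS1, AFTPH, ODC1, ZC3H6 and RHOB are placed on chromosome 3, which was lower as a whole and holds none of the members.

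The third question was how the rest of the pathway behaved, described for 6 lists with 104 other genes in the table. Of these genes, 64 were tested, 18 had no count in any library and 22 had between 1 and 46 counts in all. Of the 64, 5 were called higher and 12 lower, with a median log2 fold change of -0.059. Of the higher genes, 1 is on 2 lists, and it is counted once here and in both lists below. The call rates among all tested genes were 12.7% higher and 18.0% lower. Of the 12 lower genes, 4 are placed on chromosome 3, as are 484 of the 1647 lower genes among all tested genes. Leaving out wild type replicate 1, 2 or 3 reduced the 5 higher genes to 1 in each case, and leaving out knockout replicate 2 to 3. Higher calls of the whole table also fell in these fits, from 1163 to 639, 643, 645 and 747. Without knockout replicate 1, 18 genes were called lower, while lower calls of the whole table rose from 1647 to 1953. RPKM values below are means ± SD of 3 libraries, wild type before knockout, with log2 fold changes ± SE.

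The ligand genes in the table were not detected to any extent: IFNG and IFNA3 had no count, and IFNB had 2 counts over the 6 libraries. Other ligands that were looked for, such as IFNK and IFNW1, had no entry under those symbols and were not measured. The receptor chains were present. The type I receptor genes IFNAR1 and IFNAR2 and the interferon gamma receptor chain IFNGR2 were not called (log2 fold changes -0.16, 0.079 and 0.11). IFNGR1, the ligand-binding chain for interferon gamma, fell from 17.7 ± 0.504 to 12.7 ± 1.52 RPKM (-0.51 ± 0.10, edgeR adjusted p = 0.00418). On chromosome 3, where it is placed, that is only -0.052 from the chromosome's median.

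Of 5 tested genes among JAK kinases and other STATs, 2 rose and 1 fell. Over all tested genes, 12.7% were called higher and 18.0% lower. JAK1, at 112 RPKM in wild type and 115 RPKM in the knockout, and JAK2 were not called, while JAK3, TYK2, STAT2 and STAT6 were listed at 0. STAT5B, which signals for growth and survival cytokines, fell from 61.8 ± 2.49 to 38.1 ± 7.56 RPKM (-0.73 ± 0.12, edgeR adjusted p = 0.00133). STAT4, known for interleukin-12 signalling in T and NK cells, rose from 15 counts over the wild type libraries to 123 over the knockout libraries. That is 0.0816 ± 0.0408 against 0.666 ± 0.125 RPKM (2.82 ± 0.40, edgeR adjusted p = 0.000469). The fitted value ran from 0.62 to 3.43 over the alternatives, the lowest on log2(RPKM + 1). STAT4 and STAT5B thus moved in opposite directions, and STAT3 was not called.

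Of 12 other inhibitors tested, 3 fell, 1 rose and 8 were not called, with a median of 0.018, where 18.0% of all tested genes were called lower. Without wild type replicate 2, or without chromosome 3, 2 were called lower, where 1238 and 1219 genes of the whole table were. SOCS5, which is placed on chromosome 3, fell from 16.8 ± 3.20 to 7.68 ± 1.01 RPKM (-1.17 ± 0.14, edgeR adjusted p = 0.000142) and stood at -0.72 relative to that chromosome. SOCS3, best known as the inhibitor of STAT3 signalling, fell from 6.15 ± 1.29 to 3.39 ± 0.996 RPKM (-0.83 ± 0.28, edgeR adjusted p = 0.0421). Its call was lost when wild type replicate 2 or 3 or knockout replicate 1 or 2 was left out. SH2B3, an adaptor that restrains JAK2 signalling, fell from 3.72 ± 0.852 to 1.65 ± 0.513 RPKM (-1.17 ± 0.27, edgeR adjusted p = 0.00715). PTPN6, the phosphatase SHP-1, rose from 75.0 ± 1.89 to 94.1 ± 10.2 RPKM (0.29 ± 0.082, edgeR adjusted p = 0.0208), a call lost without wild type replicate 1, 2 or 3. SOCS4 and SOCS6 were not called (0.19 and 0.17), SOCS2 and SOCS7 were listed at 0, and CISH had 5 counts in all.

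On the list of other interferon regulatory factors, which also holds IRF2BP2, a binding partner of IRF2, edgeR called 0 of 5 tested genes. The share called among all tested genes was 30.7%, and 5 genes are few to set against it. The 2 with an unadjusted edgeR p under 0.05 were IRF2 and IRF2BP2. IRF2BP2 (log2 fold change -0.55 ± 0.21, edgeR adjusted p = 0.0727) is placed on chromosome 3, at only -0.096 relative to that chromosome's median. DESeq2 called 1 gene of this list lower and limma on log2 RPKM called 0. In edgeR, leaving out knockout replicate 1 gave 2 called lower, leaving out knockout replicate 3 gave 1, and dropping the count filter also gave 1. Lower calls over the whole table were 1647 in the main fit and 1583 with DESeq2. They were 1953 and 1731 without knockout replicate 1 and 3, and 1803 without the count filter. IRF2, a repressor of interferon targets, had 5.99 and 4.62 RPKM (log2 fold change -0.40 ± 0.14, edgeR adjusted p = 0.0572), and IRF5 had 40.0 RPKM in both genotypes (-0.032 ± 0.13). Among all IRF genes tested, IRF7 was thus the one called higher in this fit.

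Among the sensors and their adaptors other than TLR7 and IFIH1, 5 of 21 tested genes fell, 1 rose and 15 were not called (median -0.014). The rates over all tested genes were 18.0% lower and 12.7% higher. Without wild type replicate 1 or 2, 3 genes of this list were called lower, where 1177 and 1238 genes of the whole table were. TLR21, the chicken receptor for unmethylated CpG DNA, fell from 4.17 ± 0.606 to 2.86 ± 0.399 RPKM (-0.58 ± 0.16, edgeR adjusted p = 0.0177), a call lost without wild type replicate 1 or 2. TLR15, a receptor found in birds and reptiles, fell from 0.951 ± 0.0167 to 0.369 ± 0.122 RPKM (-1.36 ± 0.23, edgeR adjusted p = 0.0015; -1.57 to -0.51 over the alternatives). MB21D1, the DNA sensor cGAS, fell from 13.0 ± 0.603 to 9.39 ± 1.07 RPKM (-0.50 ± 0.10, edgeR adjusted p = 0.00428). Both are placed on chromosome 3, relative to which TLR15 stood at -0.91 and MB21D1 at -0.052. IKBKE, a kinase that activates IRF factors, fell from 19.2 ± 1.05 to 10.3 ± 1.52 RPKM (-0.92 ± 0.12, edgeR adjusted p = 0.000207). MAVS, the mitochondrial adaptor through which IFIH1 signals, fell from 4.32 ± 0.299 to 2.75 ± 0.847 RPKM (-0.66 ± 0.21, edgeR adjusted p = 0.0374), and TANK, a partner of IKBKE, rose from 4.70 ± 0.159 to 5.86 ± 0.169 RPKM (0.29 ± 0.092, edgeR adjusted p = 0.0367). Leaving out any 1 wild type library, or knockout replicate 2, ended the calls of both MAVS and TANK. Among all alternatives, MAVS lost its call in 4 and TANK in 8. MYD88, the adaptor of TLR7, was not called (-0.24 ± 0.093, edgeR adjusted p = 0.0752), nor was TLR7's trafficking partner UNC93B1 (-0.26 ± 0.18).

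Levels of interferon-stimulated genes other than ADAR and XAF1 ranged widely. Of the 39 in the table, 19 were below 0.1 RPKM in both genotypes, while SAMHD1, which degrades deoxynucleotides, had 55.7 RPKM in wild type. MX1, RSAD2, CMPK2 and EPSTI1 had no count, and OASL and IFIT5 had 1 count each over the 6 libraries. Of the 18 tested, 2 rose, 2 fell and 14 were not called (median -0.091), against 12.7% higher and 18.0% lower over all tested genes. Without knockout replicate 1, 6 of this list and 1953 genes of the whole table were called lower. Leaving out any 1 wild type library ended the calls of both higher genes. Higher calls of the whole table then fell from 1163 to between 639 and 645. HELZ2, a helicase gene, was among the higher ones, at 0.235 ± 0.0365 and 0.463 ± 0.114 RPKM (0.93 ± 0.27, edgeR adjusted p = 0.0227). HELZ2 lost its call in 6 alternatives, among them when any 1 wild type library or knockout replicate 2 was left out. TRIM14, an adaptor in antiviral signalling, fell from 4.57 ± 0.406 to 1.36 ± 0.329 RPKM (-1.75 ± 0.21, edgeR adjusted p = 0.00013). PML, the organiser of nuclear bodies, fell from 46 counts over the wild type libraries to 7 over the knockout libraries (-2.89 ± 0.54, edgeR adjusted p = 0.0023). Its fitted value ran from -3.25 to -0.20 over the alternatives, and its call was lost in 1 of them. EIF2AK2, the RNA-activated kinase PKR, was not called (-0.46 ± 0.22, edgeR adjusted p = 0.130).

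**Figure D4:**
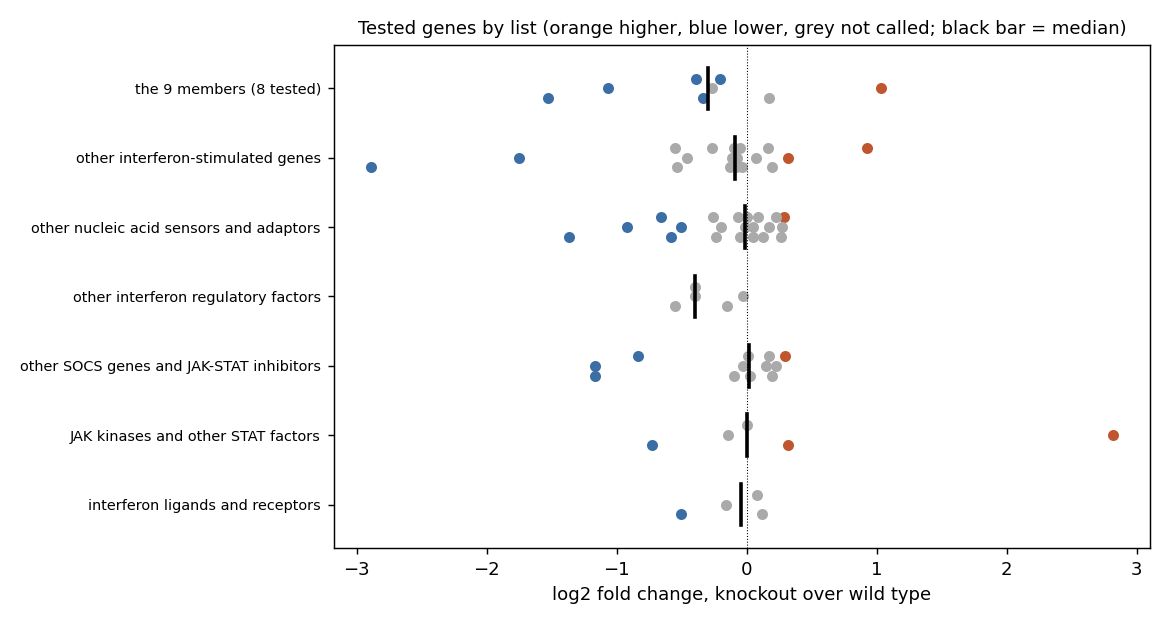
Log2 fold change of knockout over wild type (x axis) of every tested gene of the 6 pathway lists and of the 8 tested members, with genes called higher in orange, called lower in blue, not called in grey, and the median of each list as a black bar. The median of the members is -0.30. That of the list of other interferon regulatory factors is -0.40, the value of IRF9, which had 55 counts over the 6 libraries. Without this list's gene on chromosome 3 it is -0.27. The medians of the lists of sensors, SOCS genes and JAK and STAT genes lie near 0 (-0.014, 0.018 and 0.0030).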

How the data were processed

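Per the labels, total RNA of wild type and Bach2 knockout DT40 cultures was sequenced. The authors deposited raw counts per gene, and a second deposited table was read as RPKM because its values follow from the counts by a factor for each gene and a factor for each library. The submitters' processing notes name the build galGal4 and, among tools, TopHat2 2.1.0 and Subread 1.5.0, edgeR and limma; the annotation and the use of strand are not given in the sources used here, so reads of overlapping genes cannot be told apart. Counts were tested in R 4.3.3 with edgeR 4.0.16 (filterByExpr, TMM, glmQLFit, glmQLFTest, two-sided, all 6 libraries, no covariate). CPM uses TMM-adjusted totals of the tested genes. DESeq2 1.42.0 and limma 3.58.1 served as alternatives. In simulated data for the 9159 tested genes of the knockout comparison, the edgeR fit recovered 82.1% of 67 genes changed 1.5-fold and 97.0% of 67 changed 2-fold. The simulation changed 200 genes, whereas 2810 were called in the data, so its shares need not carry over. These shares pool the changed genes and were not split by count. They do not give the recovery at the counts of IRF7 or XAF1, or for changes below 1.5-fold. Chi-square per degree of freedom between libraries of a genotype was 3.10 to 27.7, so none was a duplicate. Of 14007 NCBI gene identifiers, 13400 were found in the GRCg7b table, all 9 members included. The genes named are the 9 members, BACH2, in each pathway list up to 3 called genes with the largest change plus all called ones where a direction held 5 or fewer, and the 2 closest profiles of each called member; other genes were added after their values were seen. The members and lists were chosen with earlier results of these data known. A gene of the pathway lists is counted there and not reported here by name. Motifs in promoters were planned and not analysed here.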

Additional observations from a re-analysis of the deposited data

How the results depend on the processing

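Of the members, IRF7 and SOCS1 kept their calls in all 15 alternatives, and IRF1 stayed uncalled in all 15 (adjusted p 0.144 to 0.620). ADAR and TLR7 each lost theirs in 6 of 15 and XAF1 in 4 of 14, since XAF1 was not tested when a mean of at least 1 RPKM was required. No member changed direction. With limma on log2(RPKM + 1) or log2(RPKM + 0.1), 2 members were called lower, against 5 in the main fit. Lower calls among all tested genes were 1403 and 1397 in these fits, in that order, against 1647 in the main fit. Without 1 library, 1 to 5 members were called lower and 1 to 2 higher, and 1 to 7 other pathway genes were called higher. Those fits called 1177 to 1953 genes lower and 639 to 1483 genes higher among all tested genes. The 5 higher pathway genes became 3 with a mean of at least 1 RPKM and 3 without chromosome 3, an alternative chosen after seeing the data. Same-numbered libraries did not deviate together (correlations across genes of 0.0036, 0.093 and -0.021 for replicates 1, 2 and 3), and not every library correlated best with its own number. With the replicate block, 3 members were called lower (IRF8 and ADAR were not), and 1009 genes were higher and 1567 lower. With library totals in place of TMM, the median log2 fold change of all tested genes was 0.034 and 1427 genes were higher and 1491 lower. The cause of these differences was not tested. Counts were small for IRF7 and XAF1, from 22 and from 7 per library, and the part of depth in their results was not tested.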
